A study of Mus musculus with 2 samples.

Results

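The genes described here encode enzymes that break down the branched-chain amino acids leucine, isoleucine and valine, with Ivd, the gene for isovaleryl-CoA dehydrogenase, as the starting point. They are Ivd, Bcat1, Bcat2, Bckdha, Bckdhb, Dbt, Mccc1, Mccc2, Auh and Acad8, which are 10 of the 18193 genes with a probe set assigned to a single gene. Every probe set whose platform symbol is 1 of these genes was taken, 22 of the 45037 probe sets in the deposited table. The set was chosen by the pathway and by the signals of these same arrays, with the higher Ivd signal in the knockout islets already known, so the values are a description and none was tested.

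RNA of pancreatic islets was hybridised to Affymetrix microarrays, using 1 array for mice with a knockout, restricted to beta cells, of the zinc finger transcription factor gene Zbtb20 and 1 array for their wildtype littermates, called control here. The study asked which genes depend on ZBTB20 in beta cells. All mice were of mixed background and aged 2 to 3 months, and the islets of both were hand-picked after collagenase digestion, kept in culture overnight and snap-frozen. The sources used here name neither the Cre line that removed the gene nor the number of animals behind each array. By the label of a knockout specific to beta cells, the other islet cells would keep the gene, which was not checked here.

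Branched-chain amino acid breakdown runs in a few shared steps before it divides. Transaminases remove the amino group reversibly, the mitochondrial branched-chain ketoacid dehydrogenase complex (BCKDH) commits the carbon skeleton irreversibly by oxidative decarboxylation, and separate dehydrogenases, carboxylases and hydratases then handle the leucine, isoleucine and valine branches. Leucine ends as acetyl-CoA and acetoacetate. In beta cells leucine is also a secretagogue, both as a fuel and as an allosteric activator of glutamate dehydrogenase.

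With 1 array per group there is no replicate error, no p-value can be given, and each ratio compares 2 RNA preparations. Values are MAS5 signals, which are linear intensities that summarise the probes of a probe set. Ratios are given as log2 of knockout-labelled over control, after signals under the median of their array (21.7 on the knockout-labelled array, 21.6 on the control array) were raised to that floor. A ratio with 1 side under the floor is a bound, and 2-fold was the smallest ratio counted as a difference. Different probe sets of 1 gene had a median SD of 0.21 on the log2 scale over 4729 genes with at least 2 probe sets above the floor on both arrays (0.23 over 5484 genes with bounds included), which is the only guide to measurement error here and holds no variation between animals.

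The 9 probe sets of Zbtb20 itself did not move together, with 5 lower and 4 higher in the knockout-labelled islets. Their signals lay between 54.7 and 204.6 in knockout-labelled islets and between 66.6 and 237.5 in control islets. Since the sources used here do not say which part of the gene was deleted, these probe sets neither bear out the genotype label nor go against it. The islet hormones were bright on both arrays: insulin (Ins2) gave 7785.8 in knockout-labelled and 9194.3 in control islets, and glucagon (Gcg) gave 10291.5 in knockout-labelled and 11214.6 in control islets.

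Of the 10 genes, 3 were at least 2-fold higher in the knockout-labelled islets (Ivd, Bcat1 and Mccc2) and none was at least 2-fold lower. Over all 11823 measured genes, 1.82% passed 2-fold upward and 1.44% downward. Since known ratios led to the choice of genes, nothing is read from this difference in share. The genes did not move in 1 direction: 5 had a higher signal and 5 a lower one, with a median log2 ratio of 0.11, against a median of 0.00039 over all measured genes. At the level of probe sets, 5 of the 19 that were above the floor on at least 1 array were at least 2-fold higher and none was 2-fold lower, against 1.88% higher and 1.29% lower among 21292 single-gene probe sets. The other 3 probe sets, all of Auh, were under the floor on both arrays.

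**Figure D1:**
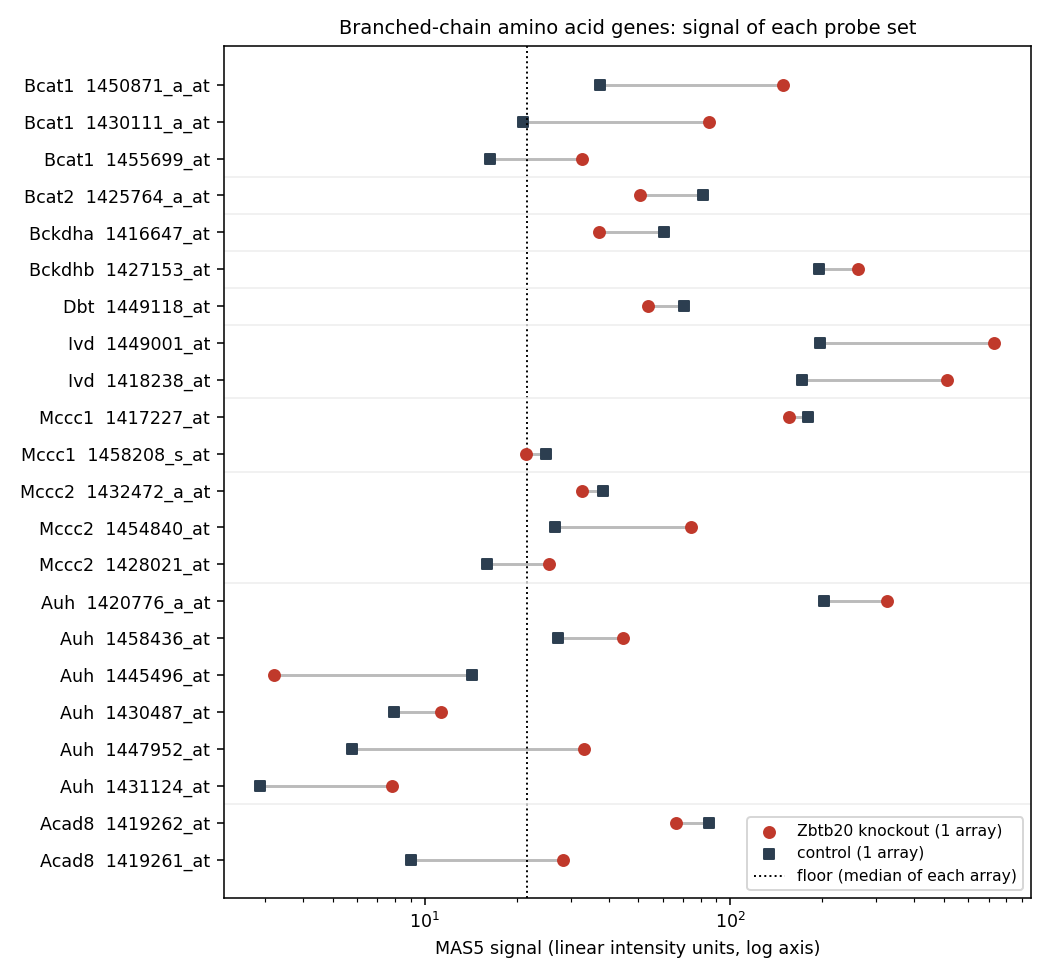
MAS5 signal (log axis) of each of the 22 probe sets of the 10 genes, with circles for the knockout-labelled array, squares for the control array and a dotted line at the floor. Both Ivd probe sets and all 3 Bcat1 probe sets have the circle to the right of the square, whereas Bcat2, Bckdha and Dbt have it to the left.

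The promoter letters of the 3 genes that reached 2-fold are shown. By their brightest probe sets these are the members whose signals differ most between the arrays. For Mccc2 this rests on a single weak probe set. Each line holds the 250 bases before an annotated start site, from RefSeq on GRCm38.p6 and read 5′ to 3′ on the gene's strand. Bcat1 has 2 annotated starts, about which the arrays say nothing. Capitals mark matches to any of 5 motifs searched on both strands: TTCNNNGAA (the STAT5 consensus), CACGTG (the E-box of MYC and related factors), TGATGNAA (the core of the amino acid response element), GGGCGG (the GC box) and CCAAT (the NF-Y box, ATTGG on the other strand), the last added after the Ivd window had been seen.
Ivd, chr2:118861744-118861993, plus strand: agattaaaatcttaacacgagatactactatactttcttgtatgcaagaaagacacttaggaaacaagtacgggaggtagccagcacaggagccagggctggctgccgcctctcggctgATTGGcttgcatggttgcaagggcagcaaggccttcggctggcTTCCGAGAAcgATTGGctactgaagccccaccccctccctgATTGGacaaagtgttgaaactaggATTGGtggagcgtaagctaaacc
Bcat1, chr6:145076158-145076407, minus strand: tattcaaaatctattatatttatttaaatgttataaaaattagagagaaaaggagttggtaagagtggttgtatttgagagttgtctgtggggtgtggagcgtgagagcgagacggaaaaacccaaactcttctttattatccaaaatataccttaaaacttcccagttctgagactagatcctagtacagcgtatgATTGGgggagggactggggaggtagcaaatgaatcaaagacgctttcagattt
Bcat1, chr6:145048813-145049062, minus strand: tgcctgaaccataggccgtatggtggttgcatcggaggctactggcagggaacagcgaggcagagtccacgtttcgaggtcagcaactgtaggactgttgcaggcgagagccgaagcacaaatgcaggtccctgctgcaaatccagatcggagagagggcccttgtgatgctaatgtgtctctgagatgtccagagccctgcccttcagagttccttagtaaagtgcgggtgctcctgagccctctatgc
Mccc2, chr13:100015640-100015889, minus strand: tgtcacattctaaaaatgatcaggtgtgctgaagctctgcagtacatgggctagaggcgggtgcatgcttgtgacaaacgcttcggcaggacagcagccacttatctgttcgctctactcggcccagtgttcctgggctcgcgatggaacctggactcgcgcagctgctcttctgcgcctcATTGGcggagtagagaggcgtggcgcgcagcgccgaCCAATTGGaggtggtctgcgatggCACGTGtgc

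The Ivd window held 1 match to TTCNNNGAA, beginning 88 bases before the start site, and 4 matches to CCAAT, beginning 131, 77, 47 and 23 bases before it. A match to TTCNNNGAA occurred in 7.02% of 32851 RefSeq promoter windows of the same length, and 0.84% of them held at least 4 matches to CCAAT. The Mccc2 window held a CACGTG that begins 9 bases before the start, a motif found in 6.02% of all windows, and 3 CCAAT matches, of which 2 overlap on opposite strands. Of the 2 Bcat1 windows, 1 held a single CCAAT, a motif present in 33.8% of all windows, and the other held none of the 5 motifs. RefSeq windows were matched for 9 of the 10 genes, 12 windows in all. Among these 12, TTCNNNGAA (7.02% of all windows) was found in 1, that of Ivd, and TGATGNAA (3.45%) in none. GGGCGG (32.7%) was found in 4 and CCAAT (33.8%) in 6. The CCAAT matches included 3 in the Mccc1 window and 2 in a Bckdhb window. A match describes letters and not a bound site, and factor binding was not measured.

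Transamination is the first step, and its genes went in opposite directions. Bcat1, the cytosolic branched-chain aminotransferase, gave 148.9 in knockout-labelled and 37.3 in control islets on its brightest probe set, 1450871_a_at, which is 3.99-fold higher (log2 ratio 2.00). The probe set 1430111_a_at gave 84.9 in knockout-labelled and 21 in control islets, at least 3.93-fold higher, since the control signal was just under the floor. The third, 1455699_at, gave 32.7 in knockout-labelled and 16.4 in control islets, at least 1.51-fold higher. All 3 probe sets were thus higher in the knockout-labelled islets. How far their ratios differ cannot be said, since 2 of them are lower bounds. Bcat1 ranked 34th from the top among all 11823 genes by ratio. The control signals were near the floor, and the Bcat1 log2 ratio was 1.15 with a floor at the 70th percentile, still past 2-fold.

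Bcat2, the mitochondrial branched-chain aminotransferase, has a single probe set, which gave 50.6 in knockout-labelled and 81.3 in control islets, 1.61-fold lower. This log2 ratio of -0.68 lay inside the central 95% of the 500 genes nearest in signal, which ran from -0.86 to 0.93. The same range for the genes nearest to Bcat1 ran from -0.81 to 0.92, and the Bcat1 ratio lay far outside it. As the genes were chosen with earlier results known, this only describes Bcat1. In rodents BCAT2 protein is known to be abundant in the exocrine pancreas. Exocrine acinar markers were lower in the knockout-labelled islets in 12 of 13 measured genes, with a median log2 ratio of -0.94 and a summed signal of 24175.9 in knockout-labelled and 45605.5 in control islets over 15 genes. Of the acinar markers, Rbpjl and Ptf1a were under the floor on both arrays. The part of acinar RNA in the Bcat2 ratio was not tested. In such a mixed tissue fewer cells of a type and less RNA per cell cannot be told apart.

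The BCKDH complex is built from a decarboxylase with alpha and beta subunits, a transacylase core and a dihydrolipoamide dehydrogenase that other complexes share. Its genes stayed below 2-fold and did not go in 1 direction. Bckdha, the alpha subunit of the decarboxylase, gave 37.1 in knockout-labelled and 60.6 in control islets, 1.63-fold lower. Bckdhb, the beta subunit, gave 261 in knockout-labelled and 194.9 in control islets, 1.34-fold higher. Dbt, the transacylase core, gave 53.9 in knockout-labelled and 70.4 in control islets, 1.31-fold lower. Each of the 3 has a single probe set, and each ratio lay inside the central 95% of the 500 genes nearest in signal, the widest of these ranges running from -1.02 to 1.11 for Bckdha.

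The other genes of this step, drawn from a list of the remaining pathway genes, were near equal by their brightest probe sets. Dld, the shared dihydrolipoamide dehydrogenase, gave 488.6 in knockout-labelled and 519.9 in control islets (log2 ratio -0.09). The activity of the complex is set by phosphorylation. Its kinase gene Bckdk gave 228.3 in knockout-labelled and 248.4 in control islets (-0.12, with another probe set at -0.57), and the gene of its phosphatase, Ppm1k, gave 71.3 in knockout-labelled and 65.6 in control islets (0.12). Both were named here after their values were seen, as was Slc25a44, the mitochondrial carrier of branched-chain amino acids (276.6 in knockout-labelled and 269.9 in control islets). Protein phosphorylation is not visible on an array.

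Ivd acts next in leucine breakdown, where it oxidises isovaleryl-CoA in the mitochondrion. Its probe set 1449001_at gave 730.4 in knockout-labelled and 196 in control islets, 3.73-fold higher (log2 ratio 1.90). The other, 1418238_at, gave 512.5 in knockout-labelled and 171.2 in control islets, 2.99-fold higher (1.58). The probe sets agreed in direction and differed by an SD of 0.22, close to the 0.21 typical of probe sets of 1 gene. Both come from the same source sequence record, so they are not independent measurements of the transcript. Ivd was bright on both arrays, and the central 95% of the 500 genes nearest in signal ran only from -0.63 to 0.67, so its ratio lay far outside that range. It ranked 37th from the top of 11823 genes. Since the higher Ivd signal was known when the gene was chosen, this range and rank only describe it. The range holds the spread between genes and no replicate error.

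**Figure D2:**
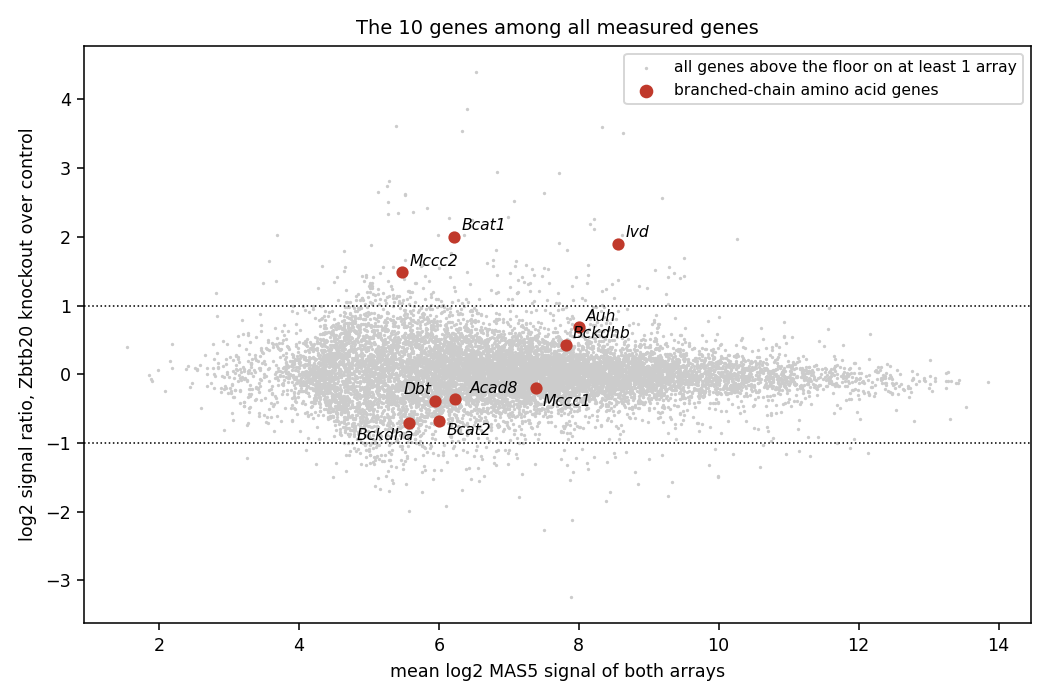
Log2 signal ratio of knockout-labelled over control islets against the mean log2 signal of both arrays, 1 point per gene (brightest probe set), with dotted lines at 2-fold and the 10 genes in red. Ivd at 1.90 stands well above most genes of its brightness, although Sftpd (2.02) and Cldn8 (2.12), of similar signal, are higher. Bcat1 at 2.00 and Mccc2 at 1.48 are at lower signals where the cloud is wider. The other 7 genes lie within the cloud or at its edge.

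The carboxylase that follows Ivd has a biotin-carrying alpha subunit, encoded by Mccc1, and a beta subunit, encoded by Mccc2. Mccc1 gave 155.6 in knockout-labelled and 179.5 in control islets on its brighter probe set, 1.15-fold lower (log2 ratio -0.21). Its other probe set, 1458208_s_at, gave 21.4 in knockout-labelled and 24.9 in control islets, next to the floor, and by its name may share probes with other transcripts. Mccc1 was therefore close to equal on both arrays.

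Mccc2 was less clear, because its probe sets disagreed. The probe set 1454840_at gave 74.3 in knockout-labelled and 26.6 in control islets, 2.79-fold higher, and put the gene past 2-fold. By contrast, 1432472_a_at gave 32.8 in knockout-labelled and 38.4 in control islets, 1.17-fold lower, and 1428021_at gave 25.4 in knockout-labelled and 16 in control islets, at least 1.18-fold higher. The mean log2 ratio of the 3 probe sets, 1 of them a bound, was 0.50, and that of 1454840_at alone was 0.15 with a floor at the 70th percentile, so the 2-fold count of Mccc2 rests on 1 weak probe set. What sets the Mccc2 probe sets apart was not tested.

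Auh, the hydratase that converts methylglutaconyl-CoA in the next leucine step and also binds RNA, had 6 probe sets. The brightest, 1420776_a_at, gave 325.3 in knockout-labelled and 202.7 in control islets, 1.60-fold higher (log2 ratio 0.68). The next, 1458436_at, gave 44.5 in knockout-labelled and 27.3 in control islets, 1.63-fold higher (0.70). A further one, 1447952_at, gave 33.1 in knockout-labelled and 5.8 in control islets, at least 1.53-fold higher. The 2 probe sets above the floor on both arrays thus had similar ratios, whereas that of the third is only a lower bound. The brightest lay just outside the central 95% of the 500 genes nearest in signal (-0.76 to 0.63) and did not reach 2-fold. The remaining 3 probe sets, with signals from 3.2 to 11.3 in knockout-labelled and from 2.9 to 14.3 in control islets, were under the floor.

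Acad8, which encodes isobutyryl-CoA dehydrogenase, acts in the valine branch at the step that corresponds to Ivd. Its brighter probe set gave 66.5 in knockout-labelled and 85.3 in control islets, 1.28-fold lower (log2 ratio -0.36). Its other probe set, from the same source record, gave 28.3 in knockout-labelled and 9 in control islets, at least 1.31-fold higher. The direction of Acad8 is thus not settled by these probe sets, and the mean over both, the second at its bound, was 0.015.

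The further genes of the pathway had similar signals on both arrays. A list of 20 other genes of branched-chain amino acid breakdown ran from the mitochondrial carrier to the methylmalonyl-CoA steps and ketone body use. Of these, 19 had a single-gene probe set, all above the floor on both arrays. None of the 19 reached 2-fold in either direction, against 1.82% higher and 1.44% lower over all measured genes. With shares this low, the count does not set the list apart. The log2 ratios of the 19 genes ran from -0.43 to 0.40 with a median of 0.035, with 11 above and 8 below 0. Acat1, the mitochondrial acetoacetyl-CoA thiolase, was the brightest of them and gave 1044.1 in knockout-labelled and 890.8 in control islets. The ratios farthest from 1 belonged to Mmab, which makes the cobalamin cofactor of methylmalonyl-CoA mutase (28.9 in knockout-labelled and 38.9 in control islets), and to Mcee, methylmalonyl-CoA epimerase (87.1 in knockout-labelled and 65.8 in control islets). Mmab had another measured probe set of opposite sign at 0.37. Hmgcll1, a paralog of the lyase that ends leucine breakdown, had a log2 ratio of 0.38. Hsd17b10, a dehydrogenase of isoleucine breakdown, was at 0.34, with another probe set at -0.20. Hibadh, a dehydrogenase of valine breakdown, was at -0.020.

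**Figure D3:**
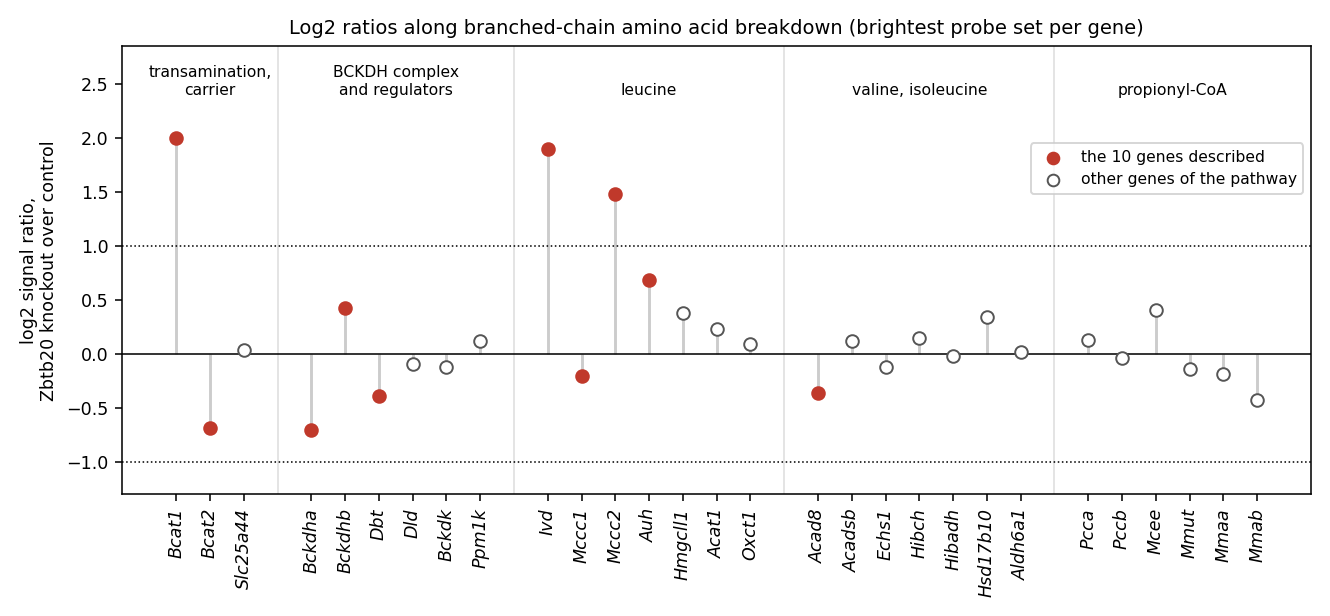
Log2 signal ratio of knockout-labelled over control islets for the 10 genes (filled) and 19 other genes of branched-chain amino acid breakdown (open), in the order of the pathway, 1 point per gene, with dotted lines at 2-fold. Bcat1, Ivd and Mccc2 are above the upper line, and the 19 other genes stay between -0.43 and 0.40.

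Enzymes related to Ivd by family were set beside it. Among 12 genes of other acyl-CoA dehydrogenases and of the flavoproteins that take up their electrons, none was at least 2-fold higher and 1 was lower. Over all measured genes the shares were 1.82% higher and 1.44% lower. The median log2 ratio of the list was -0.086. The short-chain enzyme Acads gave 98.1 in knockout-labelled and 54 in control islets (log2 ratio 0.86). Gcdh, glutaryl-CoA dehydrogenase of lysine breakdown, gave 94.8 in knockout-labelled and 52.9 in control islets (0.84). Acad10 was at least 2.27-fold lower, with a knockout-labelled signal of 13.9 under the floor and a control signal of 49.2, and its other probe set, also under the floor in knockout-labelled islets, was at least 1.61-fold lower. Acadm, the medium-chain enzyme, was at -0.37, and Acadvl, the very long-chain enzyme, was at 0.023. The electron acceptors Etfb (-0.11) and Etfdh (-0.14), through which Ivd passes electrons to the respiratory chain, were nearly equal on both arrays.

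Biotin-dependent carboxylases and the enzymes that attach or recycle biotin form a list that the Mccc subunits belong to by mechanism. It held no gene at 2-fold among 6 measured. Since only 1.82% of all measured genes were called higher and 1.44% lower, this count does not set the list apart. Acaca, the cytosolic acetyl-CoA carboxylase, had the ratio farthest from 1, with 110.4 in knockout-labelled and 64.8 in control islets (log2 ratio 0.77, and 0.13 in another probe set). Btd, which recycles biotin, was at 0.43, Hlcs, which attaches it, at -0.15, and pyruvate carboxylase (Pcx) at 0.067. Propionyl-CoA carboxylase, the closest relative of the Mccc enzyme, was at 0.13 for Pcca and -0.036 for Pccb.

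Ivd also belongs to the genes known to answer to prolactin or growth hormone in islets. Of 14 measured genes in a list of that kind, 7 including Ivd were at least 2-fold higher and none was 2-fold lower, with a median log2 ratio of 0.67, against 1.82% higher and 1.44% lower over all measured genes. This list was drawn up with the results of these arrays known and holds Ivd itself, so nothing is read from its share. Cish, a feedback inhibitor of STAT5 signalling, gave 487.2 in knockout-labelled and 161.9 in control islets, and Fmo1, a flavin monooxygenase, gave 427.1 in knockout-labelled and 121.5 in control islets. Socs2, another feedback inhibitor, gave 724.9 in knockout-labelled and 298.7 in control islets, with other probe sets between 0.064 and 1.32 on the log2 scale. Neb (1.59), Fam151a (1.38) and Matn2 (1.21) were the other genes at 2-fold. The prolactin receptor gene Prlr was not analysed, and Tph2, Foxm1 and Pbk were under the floor on both arrays. Stat5a (0.13, with another probe set at 0.55) and Stat5b (0.037, with another at -0.50) were named after their values were seen. Ghr, the growth hormone receptor, was at -0.11, and Ccnd2, a cyclin gene, at -0.16. Another cyclin gene, Ccnd1, gave 230 in knockout-labelled and 391.7 in control islets (-0.77), and the serotonin synthesis gene Tph1 was at -0.11, both named after their values were seen. None of the other 9 genes described here was placed on that list, and a response to these hormones was not measured.

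The genes whose signals on both arrays were nearest to those of Ivd were sought by the Euclidean distance of the log2 signals, over these 2 arrays only. They were the surfactant protein gene Sftpd (789 in knockout-labelled and 193.9 in control islets, distance 0.11), Fam151a (608.2 in knockout-labelled and 234.2 in control islets, distance 0.37), the decoy receptor gene Tnfrsf11b (560.1 in knockout-labelled and 225.6 in control islets, distance 0.43), the tight junction gene Cldn8 (620.2 in knockout-labelled and 142.9 in control islets, distance 0.51) and the crystallin gene Crybb3 (514.2 in knockout-labelled and 216.6 in control islets, distance 0.53). With 2 arrays, likeness means only a similar pair of signals.

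Markers of several cell types differed between the arrays too. Macrophage markers were higher in 15 of 16 measured genes, with a median log2 ratio of 0.57 and a summed signal of 2642.4 in knockout-labelled and 1668.4 in control islets over 18 genes. The brightest, Ctss, gave 444.5 in knockout-labelled and 299 in control islets. Itgam and Aif1 were under the floor on both arrays. Beta cell markers had a median of -0.077 over 12 genes, from -0.54 to 0.77, and summed to 34936.9 in knockout-labelled and 38480.7 in control islets. Alpha cell markers had a median of -0.24 over 6 genes, from -0.47 to 1.41. The highest of these, the amino acid transporter gene Slc38a5, named after its value was seen, gave 405.6 in knockout-labelled and 152.6 in control islets, 2.66-fold higher. Delta and PP cell markers had a median of 0.016 over 5 genes. Duct (-0.30 over 6 genes), endothelial (-0.18 over 9) and fibroblast or stellate markers (-0.37 over 7) were lower by their medians. The part of these cell types in the ratios of Ivd, Bcat1 and the other genes was not tested.

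**Figure D4:**
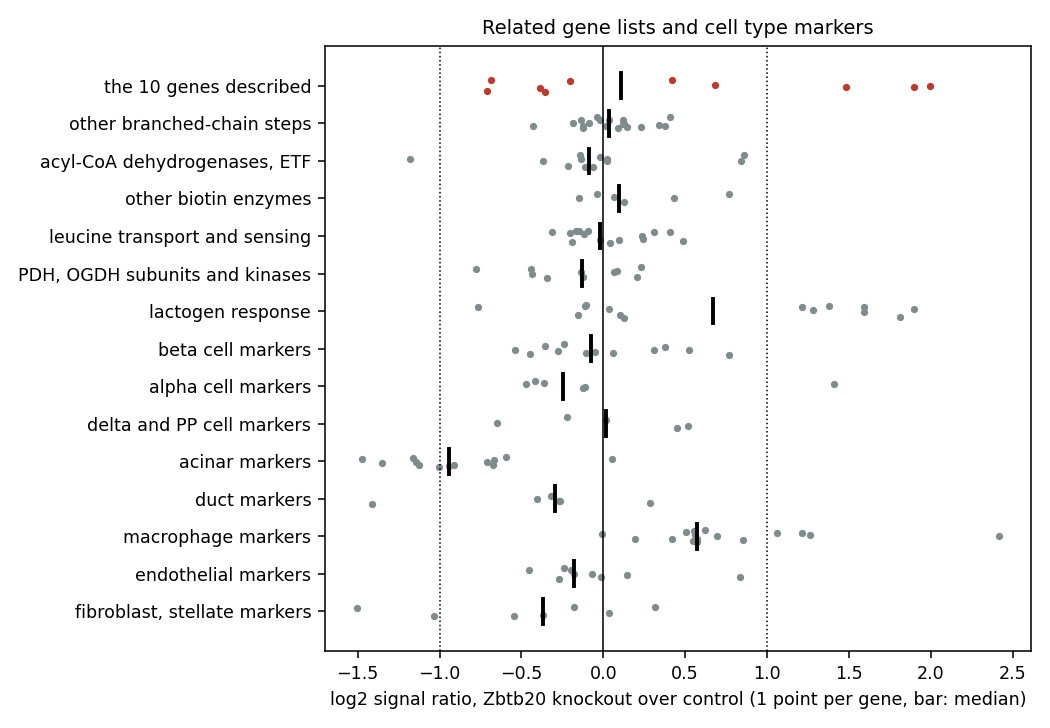
Log2 signal ratio of knockout-labelled over control islets for each measured gene (point) of the 10 genes, 6 related gene lists and 8 lists of cell type markers, with a bar at each list's median and dotted lines at 2-fold. The 10 genes spread from -0.71 to 2.00, the other branched-chain steps stay near 0, acinar markers lie mostly below 0 and macrophage markers mostly above it.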

How the data were processed

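The authors deposited linear MAS5 signal intensities, 1 value per probe set and array. The algorithm name comes from the submitters' processing notes. Its version, scaling target, background step and detection calls are not given in the sources used here. Both arrays had a mean of 99.3 after trimming 2% at each end, as on a common scale, and the intensities were used as deposited. Per the labels, 6 µg of total RNA went into the biotinylated cRNA.

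Genes came from the platform annotation: 34945 probe sets had 1 gene, 932 several and 9160 none. Of 189 list symbols, 175 had a single-gene probe set, 4 of them through a synonym, and the other 14 were not analysed here. Each gene took the value of its probe set with the highest mean log2 signal. Of 18193 genes, 11823 were at or above the floor (50th percentile) on at least 1 array and 10464 on both. All members were named, with every probe set. From each related list came every gene at 2-fold, the 4 ratios farthest from 1 and the 3 brightest genes. Exceptions are stated. Members, lists and rules were chosen with earlier results of these data known. No test was possible with 1 array per group. Alternatives were 3 scalings, 2 floors, a pseudocount of 16 without a floor, the mean over probe sets and limits of 1.5-fold and 3-fold. The ratio and call steps were tested on simulated data. Python 3.11.15, pandas 2.3.3, numpy 2.4.6, statsmodels 0.14.6 (loess) and matplotlib 3.10.9 were used.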

Additional observations from a re-analysis of the deposited data

How the results depend on the processing

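No paired analysis was possible because each group has 1 array. Ivd stayed past 2-fold under all 7 alternatives of scaling, floor and probe set, with log2 ratios from 1.74 to 1.90. Bcat1 did so too (1.15 to 2.00), with 1.63 without a floor and 1.52 as the mean over its probe sets. Mccc2 was past 2-fold under 5 of 7. With the mean over probe sets Acad8 changed sign, to 0.015. Under a floor at the 70th percentile the log2 ratio of Bcat2 was -0.24 and that of Dbt was -0.037, and Bckdha was under the floor on both arrays. At a limit of 1.5-fold, 2 of the 10 genes, Bcat2 and Bckdha, counted as lower and 4, with Auh added, as higher. At 3-fold, 2 counted as higher and none as lower. Over all genes, a floor at the 30th percentile gave 695 higher and 638 lower genes and one at the 70th gave 96 higher and 64 lower. The limit of 1.5-fold gave 814 higher and 732 lower, and that of 3-fold gave 51 higher and 17 lower. The median of all genes shifted by less than 0.01 (log2) under each of the 3 scalings. Of 281 recomputed values of other pathway genes, 268 moved by less than the typical SD between probe sets, and none changed sign from a called direction. Only genes called at 2-fold could count for the latter. Some values could not move, such as the mean over probe sets for a gene with 1 probe set. Signals near the floor limit Bcat1 and Mccc2 in the control islets.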

Other observations

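Leucine transport and sensing genes had log2 ratios from -0.31 to 0.48 by their brightest probe sets, with a median of -0.018. None of 15 measured genes reached 2-fold in either direction, against 1.82% higher and 1.44% lower over all measured genes. This count therefore does not set the list apart. Slc3a2, the heavy chain of the large neutral amino acid transporter, had the ratio farthest from 1, with 3281.2 in knockout-labelled and 2344.8 in control islets (log2 ratio 0.48). Slc7a8, a light chain of that transporter family, was at 0.31, and Glud1, the glutamate dehydrogenase that leucine activates, gave 1090.7 in knockout-labelled and 1019.5 in control islets (0.097). Sesn1, a sestrin gene, was at 0.41, with other probe sets between 0.22 and 1.07, the upper one past 2-fold. Rragc, a Rag GTPase gene of the mTORC1 pathway, was at 0.24, and Slc38a9, a lysosomal amino acid sensor, was at -0.31.

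The other ketoacid dehydrogenase complexes, built like BCKDH, also held no gene at 2-fold among 10 measured, with a median log2 ratio of -0.13. Shares over all measured genes were 1.82% higher and 1.44% lower, so this count is close to the background too. Pdk1, a kinase that switches off pyruvate dehydrogenase, gave 169.1 in knockout-labelled and 289.4 in control islets (log2 ratio -0.78), with other probe sets between -0.92 and -0.036. Dlat, the transacylase core of pyruvate dehydrogenase and the counterpart of Dbt, gave 234.8 in knockout-labelled and 318.9 in control islets (-0.44), with other probe sets at -0.65 and -0.36. Pdk4 was at -0.44, with signals next to the floor (23.3 in knockout-labelled and 31.5 in control islets), and Pdk3 was at -0.34. Pdk2, named after its value was seen, was at 0.23. Pdhb, the brightest of the list, gave 1693.6 in knockout-labelled and 1600.7 in control islets (0.081), with another probe set at 0.62. Pdha1, which pairs with Pdhb in the decarboxylase, was at -0.14, with another probe set at 0.022. Dlst, the transacylase core of oxoglutarate dehydrogenase, was at 0.064, with other probe sets between -0.40 and 0.39, the upper one a bound.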
